A study of Homo sapiens with 6 samples.

Results

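The CDK inhibitor genes analysed here are *CDKN1A*, *CDKN1B* and *CDKN1C* of the CIP/KIP family, *CDKN2A*, *CDKN2B*, *CDKN2C* and *CDKN2D* of the INK4 family, and *CDKN3*. They were chosen by gene symbol, and all 8 were found by Ensembl identifier among the 58735 genes of the deposited table. Sequenced RNA came from the human gastric cancer line HGC27, kept for 48 h in ARV-825 (3 libraries, titled ARV125nM for the dose) or left without it (3 libraries, 0 nM, with no separate time given). For the latter cells the labels say untreated and the Methods say DMSO, the name used here. ARV-825 is a degrader that brings BET proteins, readers of acetylated chromatin, to the cereblon ubiquitin ligase. HGC27 was the only cell line in these libraries. Neither source says whether the 3 samples of a group were separate cultures, and the spread behind each p-value may therefore be technical.

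Cyclin-dependent kinases (CDKs) drive the cell cycle when bound by a cyclin, and the inhibitor proteins hold them in check. CIP/KIP proteins bind assembled cyclin-CDK complexes, above all those of CDK2, whereas INK4 proteins bind CDK4 and CDK6 and keep D-type cyclins from activating them. CDKN3 is a phosphatase that removes the activating phosphate of CDK2, and it differs in sequence from both families. In epithelial tissues the inhibitors are known for their part in cell-cycle exit, and *CDKN2A* is a classical tumour suppressor gene.

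Each library held 14821971 to 15201942 fragments in genes after ARV-825 and 16626609 to 19145661 in DMSO. The deposited unit is FPKM, in which fragments are divided by exon length and by a scale of the authors for each library. Genes of the mitochondrial genome took a mean share of 5.90% ± 0.312 with DMSO and 11.2% ± 1.18 with ARV-825 (mean ± SD of 3). By the chi-square of gene fragments divided by its degrees of freedom, the first ARV-825 library was farthest from its group (6.68 and 6.02), while the other two ARV-825 libraries gave 1.62 and pairs of DMSO libraries 1.76 to 2.09. Of 5 epithelial markers (*EPCAM*, *KRT8*, *KRT18*, *KRT19* and *CDH1*), none reached a mean of 1 FPKM over the libraries, and their summed level went from 0 to 0.120 FPKM across DMSO libraries and from 0.549 to 0.738 FPKM across ARV-825 libraries. *EPCAM* made up nearly all of the ARV-825 sum, at 0.602 ± 0.0750 FPKM against 0.0274 ± 0.0297 FPKM in DMSO. *CDH1* and the keratin genes overlapped between the groups, and *KRT8* and *KRT18* were listed at 0 in every DMSO library. Of 4 mesenchymal markers, the filament gene *VIM* stood at 269 ± 5.94 FPKM in DMSO and 247 ± 1.90 FPKM in ARV-825. *ZEB1* went from 11.1 ± 0.240 to 7.52 ± 0.478 FPKM and *FN1* from 4.76 ± 0.113 to 1.99 ± 0.275 FPKM. *CDH2* was nearly absent, at 0.0574 ± 0.0197 FPKM in DMSO and 0 in every ARV-825 library. Of 7 markers of blood, endothelial and stromal cells, 5 stayed below a mean of 1 FPKM, the exceptions being *LUM* and *DCN*, and the summed level of the 7 lay between 87.8 and 91.5 FPKM with DMSO and between 53.3 and 58.2 FPKM with ARV-825. Nearly all of this sum was *LUM*, from 75.7 ± 1.70 to 53.4 ± 2.62 FPKM, and *DCN*, from 13.7 ± 0.231 to 2.39 ± 0.115 FPKM. *CD14* went the other way without overlap, from 0.189 ± 0.0588 to 0.528 ± 0.0792 FPKM, and the remaining markers overlapped or were listed at 0. The part of these markers in the results below was not tested.

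The start regions of the 5 members with the log2 fold changes largest in absolute size among the 7 tested are shown first, to set the letters at their starts side by side. Sequences are from RefSeq on GRCh38.p14 and run from 250 bases before to 50 bases after the annotated start, on the strand of the gene. Matches to 6 short motifs, sought on both strands, are in capitals.
CDKN1A: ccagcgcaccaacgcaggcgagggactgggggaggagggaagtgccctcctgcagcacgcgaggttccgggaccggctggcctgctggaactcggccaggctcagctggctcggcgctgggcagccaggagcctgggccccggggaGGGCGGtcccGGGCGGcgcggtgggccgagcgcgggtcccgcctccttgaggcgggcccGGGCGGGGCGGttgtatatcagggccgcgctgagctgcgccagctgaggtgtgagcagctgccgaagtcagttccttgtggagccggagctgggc
CDKN2B: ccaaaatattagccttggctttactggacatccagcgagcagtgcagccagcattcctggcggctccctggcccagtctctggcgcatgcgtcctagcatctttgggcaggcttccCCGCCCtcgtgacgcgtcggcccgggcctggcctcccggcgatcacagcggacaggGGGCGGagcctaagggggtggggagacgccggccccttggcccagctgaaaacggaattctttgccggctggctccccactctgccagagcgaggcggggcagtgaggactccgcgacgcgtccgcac
CDKN2D: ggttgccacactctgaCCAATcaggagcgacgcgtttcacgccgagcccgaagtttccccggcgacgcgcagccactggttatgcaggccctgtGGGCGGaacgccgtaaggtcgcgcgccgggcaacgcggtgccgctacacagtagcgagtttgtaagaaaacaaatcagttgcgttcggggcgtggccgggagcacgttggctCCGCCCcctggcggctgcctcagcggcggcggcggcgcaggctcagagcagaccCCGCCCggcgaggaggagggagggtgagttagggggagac
CDKN1B: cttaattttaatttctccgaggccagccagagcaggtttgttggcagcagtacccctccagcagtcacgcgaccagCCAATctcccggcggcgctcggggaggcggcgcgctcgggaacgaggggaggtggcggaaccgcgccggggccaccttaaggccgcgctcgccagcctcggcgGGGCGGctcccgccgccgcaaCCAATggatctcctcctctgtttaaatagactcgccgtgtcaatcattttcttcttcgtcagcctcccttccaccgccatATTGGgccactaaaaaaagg
CDKN3: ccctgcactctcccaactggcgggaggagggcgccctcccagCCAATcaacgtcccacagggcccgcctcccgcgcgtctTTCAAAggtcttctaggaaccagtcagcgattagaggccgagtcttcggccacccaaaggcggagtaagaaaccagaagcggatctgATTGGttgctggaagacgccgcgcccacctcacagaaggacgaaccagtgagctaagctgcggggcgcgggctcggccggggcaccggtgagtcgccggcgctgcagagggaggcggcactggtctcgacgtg

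The motifs searched were the GC box (GGGCGG, 6 letters bound by SP1-type factors), the CCAAT box (CCAAT), the cell cycle homology region or CHR (TTTGAA), the E-box (CACGTG), the TATA box (TATAAA) and an E2F motif (GCGGGAA). The *CDKN1A* window, at chr6:36678464-36678763 on the forward strand, held 4 GC boxes, at 104, 94, 45 and 40 bases before the start, of which the last 2 overlap. The windows of *CDKN2B* (chr9:22009256-22009555, reverse strand) and *CDKN2D* (chr19:10568930-10569229, reverse strand) held 2 and 3 GC boxes, and that of *CDKN2D* also had a CCAAT box. *CDKN1B* (chr12:12717118-12717417, forward strand) held 1 GC box and 3 CCAAT boxes. *CDKN3* (chr14:54396757-54397056, forward strand) had no GC box match, but 2 CCAAT boxes and a CHR match that begins 170 bases before the start. A GC box was found in 45.0% of all 35116 start regions of this length, a CCAAT box in 34.6% and a CHR match in 15.2%. E-box, TATA box and E2F letters occurred in 7.26%, 11.5% and 6.55% of them, and in none of the 5 windows shown. *CDKN2A* has 2 such windows, of which 1 held 2 GC boxes and the other no match. *CDKN2C* has 3, of which 1 held 6 GC boxes and 2 E2F matches and the others an E-box each, 1 of them with a GC box and a CCAAT box as well. A start region was matched for 7 of the 8 members, the other being *CDKN1C*. A match describes the letters only, and binding was not measured here.

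After ARV-825 treatment, 6 of the 7 members that passed the filter on low values (a mean FPKM of at least 1) were higher and *CDKN3* was lower at an adjusted p under 0.05, although *CDKN2A* and *CDKN2C* lost the call and changed sign when the values were rescaled to TPM, a unit that sets every library to the same summed level. *CDKN1A*, *CDKN2B* and *CDKN2D* rose past both thresholds of the Methods, here a log2 fold change beyond 1 in size together with an adjusted p under 0.05. *CDKN1C* did not pass the filter. Among all 13442 genes tested with limma on log2(FPKM + 1), 37% rose and 40.2% fell at that adjusted p (77.2% in either direction), and 8.81% were higher and 12.1% lower past both thresholds. The counts past both thresholds were 1184 higher and 1630 lower, and 1068 higher and 2978 lower under TPM. The median log2 fold change of the 7 members was 0.68, against −0.02 for all genes tested. TPM moved the median of all genes to −0.31. Lower RNA per cell and fewer cells that express a gene cannot be told apart in bulk samples.

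**Figure D1:**
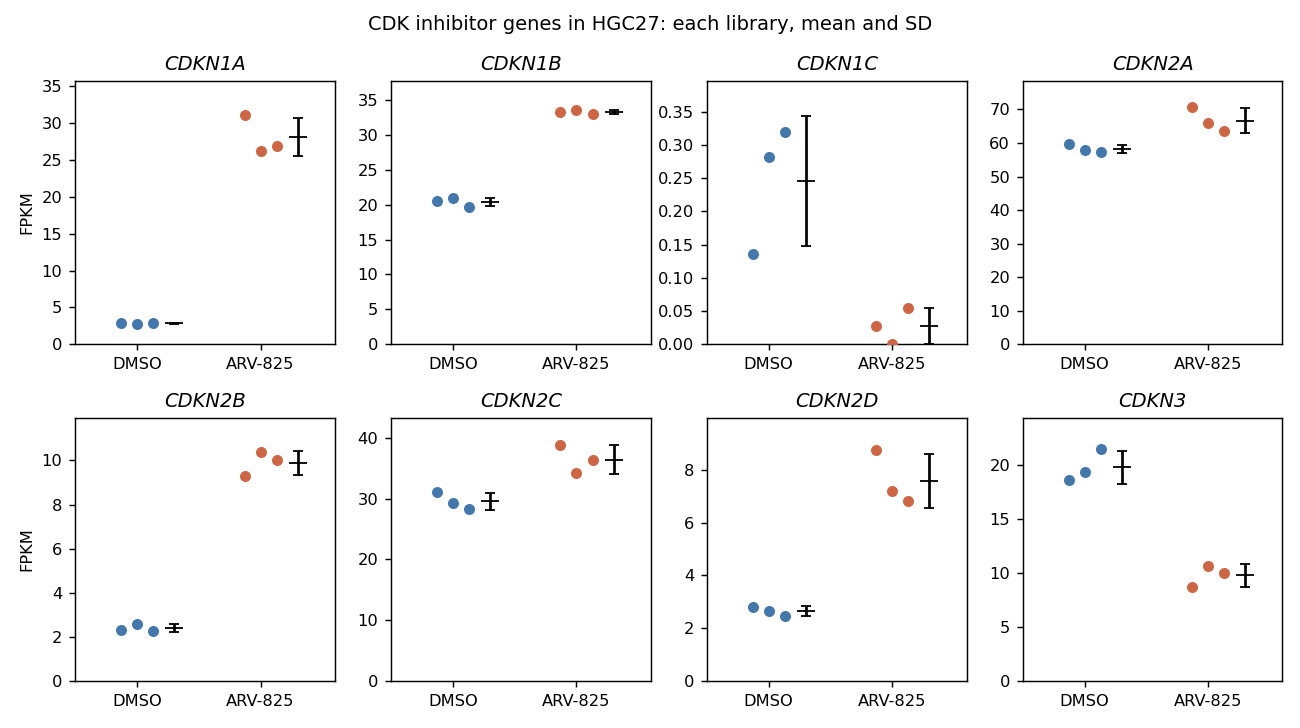
FPKM (vertical axes, each starting at 0) of the 8 CDK inhibitor genes in each DMSO and ARV-825 library (points), with mean and SD beside them (n = 3 each). The groups did not overlap for any of the 8 genes, with *CDKN1C* and *CDKN3* lower and the other genes higher in ARV-825 on the FPKM scale, where under TPM *CDKN2A* and *CDKN2C* had slightly negative fold changes. Such groups without overlap were found for 80.1% of all 13442 genes tested.

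*CDKN1A* encodes p21, an inhibitor of cyclin-CDK2 complexes, and lies on chromosome 6 (GRCh38) from 36676460 to 36687339, forward strand. It stood at 2.85, 2.80 and 2.83 FPKM with DMSO and 31.1, 26.3 and 26.9 FPKM with ARV-825. All 3 ARV-825 values lay far above all 3 DMSO values, and ARV-825 replicate 1 was the highest. The mean was 9.94-fold higher, with a log2 fold change of 2.92 on the log2(FPKM + 1) scale (SE 0.0656, adjusted p = 2.05e-07 from limma), a scale that understates the change of low genes. The values rest on 147 to 174 fragments in each library of DMSO cells and 1202 to 1382 in each of ARV-825 cells. Without ARV-825 replicate 1 the log2 fold change was 2.85, and with TPM it was 2.88. It lay at percentile 99.5 of the log2 fold changes of all genes tested. Of its exon bases, 4.79% are shared with *DINOL* on the opposite strand, a gene listed at 0 in every library.

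*CDKN1B* encodes p27, which accumulates in resting cells, and lies on chromosome 12 from 12715058 to 12722371, forward strand. It rose from 20.5, 20.9 and 19.7 FPKM in DMSO to 33.3, 33.6 and 33.0 FPKM in ARV-825. The ARV-825 values were close to each other and all above DMSO, with a 1.63-fold higher mean (log2 fold change 0.68, SE 0.0350, adjusted p = 3.26e-06 from limma). Under TPM the log2 fold change was 0.39, against the median of −0.31 over all genes on that scale. No sequence word of 31 bases was shared between its transcripts and those of another gene.

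*CDKN1C*, an imprinted gene, encodes the CIP/KIP inhibitor p57 and lies on chromosome 11 from 2883213 to 2885773, reverse strand. It was barely detected, at 0.135, 0.281 and 0.320 FPKM in DMSO and 0.0277, 0 and 0.0552 FPKM in ARV-825. Every ARV-825 value lay below every DMSO value, but these were 6, 12 and 16 fragments in DMSO against 1, 0 and 2 in ARV-825. Over the group totals, 3 fragments in ARV-825 against 34 in DMSO gave a rate ratio of 0.104, with an exact 95% interval of 0.0204 to 0.330 that covers counting error only. With limma on all genes of at least 0.1 mean FPKM, its log2 fold change was −0.27 (adjusted p = 0.0274). With voom on every gene holding 2 or more fragments in total, a setting chosen after the data were examined, it was −2.94 (SE 0.664, adjusted p = 0.00126). The pseudocount of 1 lies above all of its values, which holds the first of these close to 0.

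*CDKN2A* encodes p16 and, from another start and reading frame, the protein ARF. It lies on chromosome 9 from 21967753 to 21995301, reverse strand, and it was the most abundant of the 8 per length in both groups. Its level was 59.7, 58.0 and 57.3 FPKM in DMSO and 70.7, 65.9 and 63.5 FPKM in ARV-825. The groups did not overlap, but the gap between the lowest ARV-825 and the highest DMSO value was about as wide as the SD within ARV-825. The mean was 1.14-fold higher (log2 fold change 0.19, SE 0.0461, adjusted p = 0.00768 from limma), while it was −0.12 under TPM (adjusted p = 0.109) and 0.10 after scaling to the fragments in genes (adjusted p = 0.0722), a setting added later. Relative to the median of all genes the change was 0.20 on FPKM and 0.19 under TPM. One value per gene was deposited, so p16 and ARF transcripts cannot be told apart. Of its exon bases, 7.88% are shared with the antisense gene *CDKN2B-AS1*, which had 107 to 163 fragments per library beside 4023 to 5006 of *CDKN2A*.

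*CDKN2B* encodes p15, an inhibitor known to be induced by TGF-beta, and lies on chromosome 9 from 22002903 to 22009363, next to *CDKN2A* on the same strand. It rose from 2.31, 2.59 and 2.27 FPKM in DMSO to 9.30, 10.4 and 10.0 FPKM in ARV-825. The groups were far apart, and ARV-825 replicate 1, the highest for *CDKN1A*, was here the lowest of the treated libraries. The mean was 4.14-fold higher (log2 fold change 1.68, SE 0.0601, adjusted p = 7.94e-07 from limma), and 1.63 under TPM. Of the sequence words of 31 bases in its transcripts, 1.95% also occurred in another gene, for the most part in *CDKN2A*, so that few fragments could be assigned to both.

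*CDKN2C* encodes p18 and lies on chromosome 1 from 50960745 to 50974633, forward strand. It stood at 31.1, 29.3 and 28.3 FPKM in DMSO and 38.8, 34.2 and 36.3 FPKM in ARV-825, with no overlap. The mean was 1.23-fold higher (log2 fold change 0.29, SE 0.0577, adjusted p = 0.00286 from limma), but −0.011 under TPM (adjusted p = 0.895). *CDKN2D* encodes p19, the INK4 member of chromosome 19, and lies from 10566462 to 10569059 on the reverse strand. It rose from 2.82, 2.67 and 2.47 FPKM to 8.76, 7.21 and 6.82 FPKM, on 69 to 76 and 150 to 192 fragments in each library. All ARV-825 values were above DMSO, and replicate 1 was again the highest. The mean was 2.86-fold higher (log2 fold change 1.23, SE 0.0902, adjusted p = 1.75e-05), 1.13 without ARV-825 replicate 1 and 1.12 under TPM.

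*CDKN3*, on chromosome 14 from 54396849 to 54420218, forward strand, was the tested member that fell. It stood at 18.6, 19.3 and 21.5 FPKM in DMSO and 8.67, 10.7 and 9.97 FPKM in ARV-825. The groups did not overlap, and the DMSO mean was 2.03-fold that of ARV-825 (log2 fold change −0.95, SE 0.0840, adjusted p = 4.38e-05 from limma). With the pseudocount of 1 it did not pass the fold threshold, but the log2 fold change was −1.01 with a pseudocount of 0.1 and also without ARV-825 replicate 2, −1.03 after scaling to fragments, −1.11 with voom and −1.30 under TPM. For each of the 8 members an exact two-sided permutation test gave p = 0.1, the smallest that 3 samples against 3 allow. ARV-825 was above DMSO without overlap for 6 members and below for 2, *CDKN3* and *CDKN1C*, the latter not among the genes tested. Over all genes tested the shares above and below were 38.5% and 41.6% (80.1% together).

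**Figure D2:**
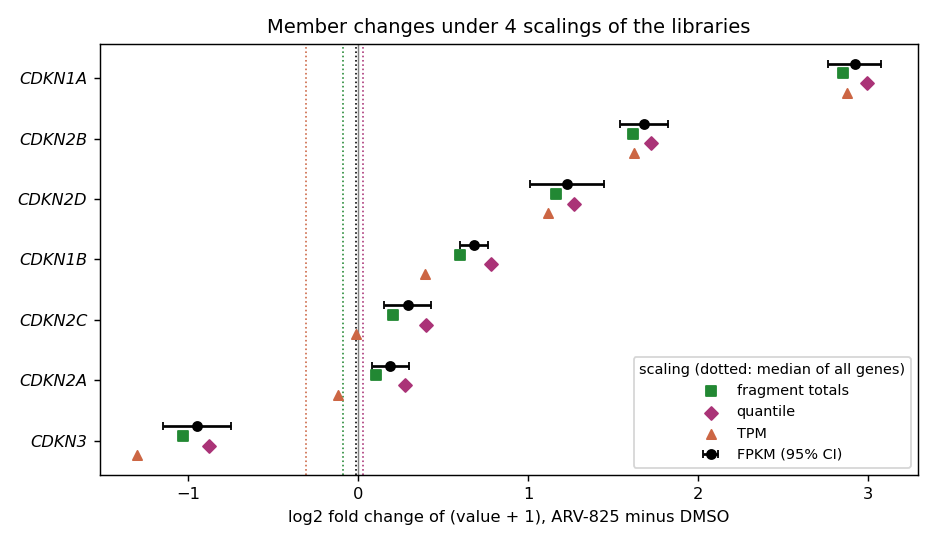
Log2 fold change of (value + 1), ARV-825 minus DMSO, for the 7 tested members with FPKM (black, 95% CI) and with values scaled to fragments in genes, quantile normalized or rescaled to TPM. Dotted lines mark the median of all genes in each scaling. *CDKN1A*, *CDKN2B*, *CDKN2D* and *CDKN1B* were above 0 and *CDKN3* below 0 in these 4 scalings, while *CDKN2C* and *CDKN2A* changed sign under TPM.

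The order of the levels changed with treatment. In DMSO, *CDKN2A* led with a mean of 58.3 FPKM, followed by *CDKN2C* at 29.6, *CDKN1B* at 20.4 and *CDKN3* at 19.8 FPKM, of which the last 2 overlapped. *CDKN1A*, *CDKN2D* and *CDKN2B* followed at 2.83, 2.65 and 2.39 FPKM, each overlapping its neighbour in the order. In ARV-825, *CDKN2A* at 66.7, *CDKN2C* at 36.4, *CDKN1B* at 33.3 and *CDKN1A* at 28.1 FPKM were each apart from the next. *CDKN2B* at 9.89, *CDKN3* at 9.78 and *CDKN2D* at 7.60 FPKM overlapped with their neighbours. *CDKN1A* had moved from the group of scarce inhibitors to a level near that of *CDKN1B*. Levels of different genes are compared here per length of all annotated exons, so an unused exon lowers a gene's FPKM.

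Shares within a library do not depend on the factor by which the library was scaled. *CDKN1A* made up 2.39%, 2.40% and 2.50% of the summed FPKM of the 7 CIP/KIP and INK4 genes in DMSO and 16.2%, 14.8% and 15.3% in ARV-825. The share of *CDKN2A* was 50.1% ± 0.429 in DMSO and 36.6% ± 0.589 in ARV-825, and that of *CDKN2C* 25.4% ± 0.577 and 20.0% ± 0.682 (SD, n = 3 each). The shares of both were smaller in every ARV-825 library than in any DMSO library. *CDKN2B* took 2.05% ± 0.151 and 5.45% ± 0.535, and *CDKN2D* 2.28% ± 0.0900 and 4.16% ± 0.361. The share of *CDKN1B* overlapped between the groups, at 17.2% to 17.9% in DMSO and 17.3% to 18.9% in ARV-825. Summed over the family, the CIP/KIP genes had 2.62-fold the DMSO level on FPKM and 2.11-fold under TPM, without overlap in either. The summed INK4 genes had 1.30-fold the DMSO level on FPKM, and 1.05-fold with overlapping groups under TPM.

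**Figure D3:**
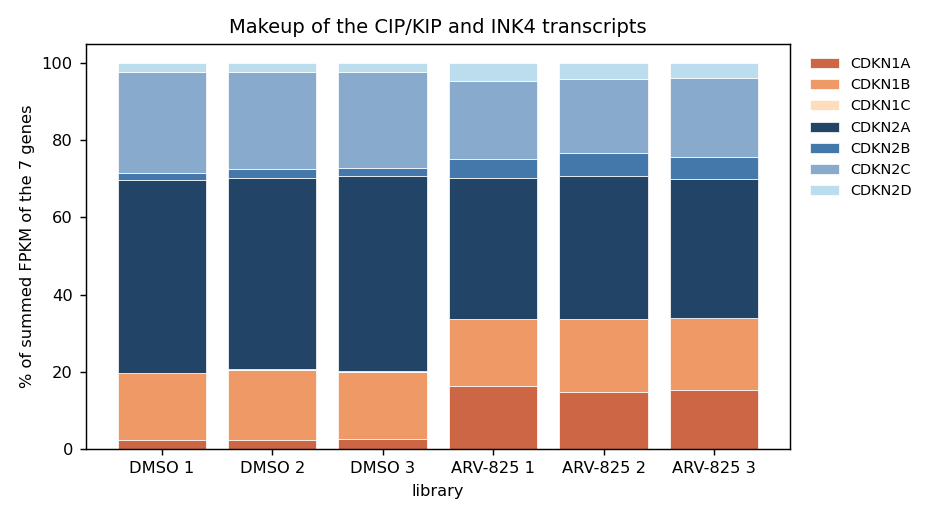
Percentage of the summed FPKM of the 7 CIP/KIP and INK4 genes (vertical axis) taken by each gene in each of the 6 libraries. The bottom segment, *CDKN1A*, grew from 2.39% to 2.50% in DMSO to 14.8% to 16.2% in ARV-825, while *CDKN2A* went from 50.1% to 36.6% on average.

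Whether members changed to different extents was compared by the log2 ratio of their FPKM + 1 in each library, over 5 pairs. The *CDKN1A* to *CDKN1B* log2 ratio was −2.48 ± 0.0454 in DMSO and −0.24 ± 0.128 in ARV-825, a difference of 2.24. The *CDKN2A* to *CDKN2B* log2 ratio went from 4.13 ± 0.0822 to 2.64 ± 0.142 and the *CDKN2C* to *CDKN2D* log2 ratio from 3.07 ± 0.0174 to 2.13 ± 0.115. In both INK4 pairs the scarcer gene gained on the abundant one. *CDKN2D* gained 0.55 on *CDKN1B*, and the *CDKN3* to *CDKN1A* log2 ratio differed by −3.88. All 5 pairs had groups that did not overlap, with exact two-sided permutation p = 0.1 and p = 0.1 after Benjamini-Hochberg adjustment over the 5 pairs, so that none could pass 0.05 in this design.

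The kinases and cyclins on which these inhibitors act were mostly lower. Of 17 listed CDKs, cyclins and subunits of the CDK-activating kinase, 16 were tested, of which 12 fell and 4 rose past the adjusted p (2 rose under TPM), with a median log2 fold change of −0.71. Across all genes tested, 40.2% fell and 37% rose past it. *CDK1* and *CDK2*, partners of the CIP/KIP proteins, both fell, *CDK1* from 29.2 ± 1.32 to 7.98 ± 0.992 FPKM and *CDK2* from 27.1 ± 1.31 to 7.71 ± 0.932 FPKM. The INK4 target *CDK6* fell from 5.17 ± 0.0381 to 1.06 ± 0.0975 FPKM (log2 fold change −1.58), and *CDK4* had −0.69. The cyclin genes *CCNA2*, *CCNE1* and *CCNB2* had log2 fold changes of −1.69, −1.18 and −1.13. *CCND1* stood at 51.9 ± 1.57 and 47.9 ± 0.814 FPKM (log2 fold change −0.11, adjusted p = 0.0227 from limma, not passing under quantile normalization). The higher genes were *CDK7*, *CCNH* and *MNAT1*, the subunits of the CDK-activating kinase, and *CCND2*. Under TPM *CCND2* and *MNAT1* did not pass, and *CCND2* changed sign.

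Set against their kinases, the inhibitor transcripts stood higher in ARV-825, and a factor applied to a whole library cancels in such a ratio. The summed CIP/KIP level was 0.400, 0.424 and 0.427 of the summed level of *CDK1* and *CDK2* in DMSO and 4.12, 3.81 and 3.80 in ARV-825. The summed INK4 level was 2.19, 2.09 and 2.01 times that of *CDK4* and *CDK6* in DMSO and 4.43, 5.13 and 4.95 times in ARV-825. Neither ratio overlapped between the groups. The FPKM ratio of *CDKN2B* to *CDK6* was 0.462 ± 0.0343 in DMSO and 9.35 ± 0.478 in ARV-825. *CDKN3* fell less than *CDK1*, with a ratio of 0.681 ± 0.0850 and 1.23 ± 0.0536. These ratios are of transcripts, and protein was not measured in these data.

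**Figure D4:**
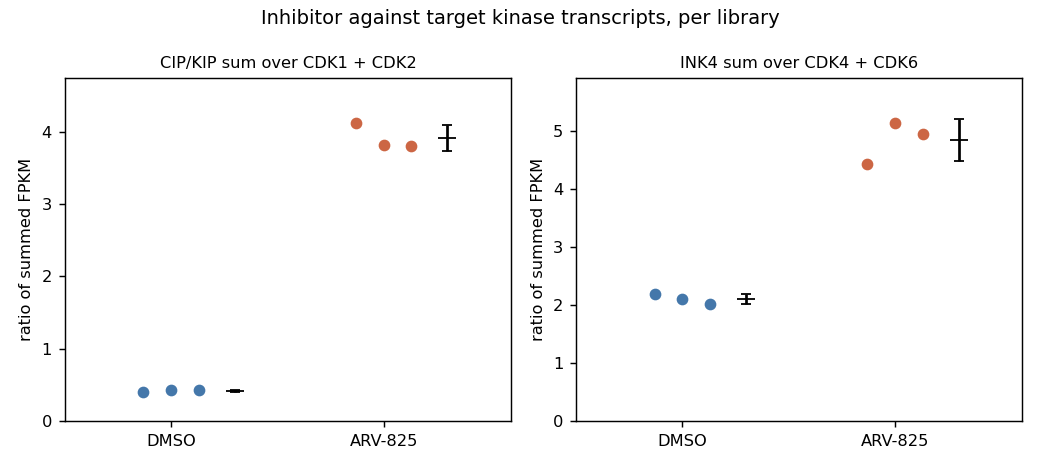
Ratio of summed FPKM of the CIP/KIP genes to *CDK1* plus *CDK2* (left) and of the INK4 genes to *CDK4* plus *CDK6* (right) in each library (points), with mean and SD (n = 3 each). Both vertical axes start at 0, and the ARV-825 ratios of 3.80 to 4.12 and 4.43 to 5.13 lay above the DMSO ratios of 0.400 to 0.427 and 2.01 to 2.19.

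Factors that remove the inhibitor proteins moved in both directions. Of 12 listed, 8 were lower, 3 higher and 1 did not pass, and the median log2 fold change was −0.35. *SKP2* and its cofactor *CKS1B*, which target p27 for degradation, both fell, *SKP2* from 30.2 ± 1.16 to 12.9 ± 0.935 FPKM and *CKS1B* from 62.9 ± 1.70 to 27.2 ± 1.64 FPKM. The FPKM ratio of *CDKN1B* to *SKP2* was 0.675 ± 0.0138 in DMSO and 2.59 ± 0.169 in ARV-825. *DTL*, a substrate receptor for p21, fell the most of the list, with a log2 fold change of −2.07, and *CDC20* had −0.99. *RNF123*, which ubiquitinates p27, rose from 4.77 ± 0.0316 to 10.4 ± 0.759 FPKM, and *SKP1* and *CUL4B* were higher as well. *DDB1* did not pass on FPKM, was lower under TPM and was higher after quantile normalization.

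Of 24 listed regulators of inhibitor transcription, 21 were tested, of which 10 were lower, 8 higher (4 under TPM) and 3 did not pass, and the median log2 fold change was −0.05. Shares over all genes tested were near these, with 40.2% lower and 37% higher, so the counts do not set this list apart. *FOXO3*, an activator of *CDKN1B*, rose from 4.61 ± 0.0846 to 9.58 ± 0.437 FPKM, whereas *FOXO1*, also listed, was lower. *MYC*, which represses *CDKN1A* and *CDKN2B* together with the product of *ZBTB17*, had a log2 fold change of −0.88. *ZBTB17* itself was higher on FPKM but did not pass under TPM. *SP1* and *SP3*, also listed, were lower. The Polycomb genes *BMI1*, *EZH2* and *RNF2*, known as repressors of the *CDKN2A* locus, had −0.79, −0.63 and −0.66. Genes known for repression of inhibitor genes also rose, with *ID1* from 34.1 ± 2.88 to 130 ± 13.5 FPKM and *TBX3* from 6.28 ± 0.431 to 16.7 ± 1.28 FPKM. *E2F1*, which activates the ARF start of *CDKN2A*, fell with a log2 fold change of −2.11, and *KLF4*, an activator of *CDKN1A*, with −1.18. The regulators that did not pass were *FOXO4*, *SMAD3* and *ETS2*, of which *SMAD3* and *ETS2* were lower under TPM.

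**Figure D5:**
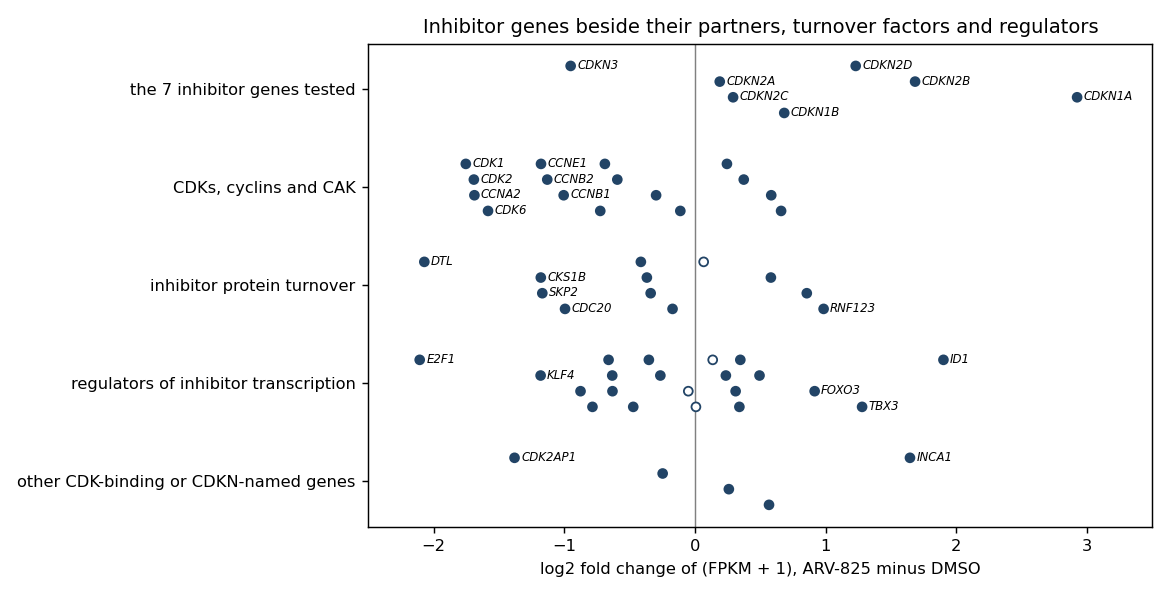
Log2 fold change of (FPKM + 1), ARV-825 minus DMSO, for the 7 tested inhibitor genes and for listed partners, turnover factors, regulators and other CDK-binding genes, 1 point per gene (open points did not pass an adjusted p of 0.05). The inhibitor genes spread from −0.95 to 2.92 and the CDKs and cyclins from −1.75 to 0.66. Under TPM *CDKN2A*, *CDKN2C* and some listed genes, such as *CCND2*, *RB1*, *SMAD2* and *CDK2AP2*, lay below 0.

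Retinoblastoma family genes, whose products are kept active by the inhibitors, moved apart. *RBL1* fell from 4.22 ± 0.172 to 0.634 ± 0.0271 FPKM, *RBL2* had a log2 fold change of −0.20, and *RB1* stood at 9.35 ± 0.471 and 11.1 ± 1.04 FPKM (log2 fold change 0.22, adjusted p = 0.0231 from limma, not passing after scaling to fragments, and with the sign changed under TPM). Among 5 other genes named for CDK binding, *INCA1*, an inhibitor of CDK2 complexes, rose from 0.841 ± 0.159 to 4.75 ± 0.265 FPKM. *CDK2AP1*, a CDK2-binding protein gene, fell from 20.1 ± 0.688 to 7.11 ± 0.361 FPKM. *CDKN2AIP* rose, *CDKN2AIPNL* fell, and *CDK2AP2* was higher on FPKM but did not pass under TPM, where its sign changed, or after scaling to fragments.

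The nearest tested genes on the chromosome moved in both directions. *SRSF3* and *PPIL1*, on either side of *CDKN1A*, had log2 fold changes of −0.92 and −1.76, and *MTAP*, beside *CDKN2A*, had −0.64. *FAF1*, on the opposite strand and 482 bases from *CDKN2C*, had −0.73, whereas *RNF11*, on the other side, had 0.94. *CDKN2B-AS1*, the non-coding gene that spans *CDKN2B*, stood at 0.969 ± 0.0401 FPKM in DMSO and 1.11 ± 0.168 FPKM in ARV-825 and did not pass (adjusted p = 0.363 from limma), whereas *CDKN2B* itself rose, as did the pseudogene *UBA52P6* beside it, with 0.54. *KRI1*, 425 bases from *CDKN2D*, had a log2 fold change of 0.11, and *CNIH1*, 3342 bases from *CDKN3*, had −0.05 (adjusted p = 0.382). On the other sides, *SLC44A2* beside *CDKN2D* had −0.68 and *BMP4* beside *CDKN3* had 0.07, which did not pass. *TSSC4* and *SLC22A18*, around *CDKN1C*, had −0.55 and 0.22. Both protein-coding neighbours of *CDKN1B* rose, *CREBL2* with 0.53 and *APOLD1* with 1.77. *APOLD1* went from 0.533 ± 0.0721 to 4.24 ± 0.212 FPKM. Of 4 listed non-coding RNA genes, 3 were matched by symbol. *PANDAR*, next to *CDKN1A*, was listed at 0 in every library, and *KCNQ1OT1*, near *CDKN1C*, stood at 0.681 ± 0.0547 and 1.17 ± 0.0585 FPKM.

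The profiles most like that of *CDKN1A*, by Euclidean distance of log2(FPKM + 1) over the 6 libraries among 10590 protein-coding genes, were those of *CD83*, *TOM1L2* and *SESN3*. *CD83* was closest, at a distance of 0.575, and went from 2.26 ± 0.181 to 24.6 ± 0.874 FPKM. *SESN3* went from 4.32 ± 0.0668 to 29.9 ± 2.02 FPKM. For *CDKN3*, the tested member with the lowest fold change, they were *TBC1D31*, *CIAO2A* and *MTREX*, at distances of 0.190, 0.208 and 0.220. With 6 libraries in 2 groups, such a likeness reflects the level in each group.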

How the data were processed

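RNA-seq of HGC27 cells (3 DMSO and 3 ARV-825 libraries) was taken from 1 table. The authors deposited FPKM values, for which the submitters' processing notes list HISAT2 2.0.5. How fragments were counted is not given in these sources, and the notes list mm10, although all 58735 identifiers are human and found in GENCODE 29, which gave lengths and GRCh38 coordinates. Fragments, recovered as FPKM times exon length and the library's scale, were whole within 0.05 for 100% of values above 0. The kit named in the labels does not mark strand.

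limma 3.58.1 in R 4.3.3 (lmFit, eBayes with trend) compared log2(FPKM + 1) of the 13442 genes whose mean FPKM reached 1, with Benjamini-Hochberg adjustment over all of them. The fit was also run on simulated data in which few genes changed. Most genes changed here, so that run does not check the calls in these data. Single genes and ratios were compared by exact permutation (scipy 1.17.1). All members could be named, as could any listed gene (with values at most for the 6 largest changes of a list and those not passing), the nearest tested neighbours with a symbol and the 3 most similar profiles. *CDK4*, *CCND1*, *BMI1*, *EZH2* and *RNF2*, outside this rule, were given values after these were seen. A regulator counted in its list is not reported here by name. Members and lists were chosen with earlier results of these data known. Alternatives covered pseudocount, filter, scaling, variance model, recovered fragments with voom, replicate block and left-out libraries.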

Additional observations from a re-analysis of the deposited data

How the results depend on the processing

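Of 119 values of the 7 tested members under 17 alternatives, 116 kept their direction and their side of an adjusted p of 0.05 (limma). The others were *CDKN2A* under TPM (−0.12) and scaled to fragments in genes (0.10), and *CDKN2C* under TPM (−0.011). Scaled to the summed FPKM without mitochondrial genes, *CDKN2A* had 0.16 (adjusted p = 0.00569 from limma) and *CDKN2C* 0.26 (adjusted p = 0.00213). The median of all genes was −0.04 in that setting, against −0.31 under TPM. The cause of the differences between scalings was not tested. All 40 alternative values of the ratios kept their direction. Over the whole table, 2978 genes were lower under TPM and 2536 with voom on the recovered fragments, against 1184 higher and 1630 lower on FPKM. Voom on every gene holding 2 or more fragments, a setting added later like the scaling to fragments, gave 4656 higher and 4539 lower. It tested 31190 genes rather than 13442, so its counts are not on the same set of genes. Of the calls, 42.1% were higher on FPKM, 26.4% under TPM and 50.6% in the last setting. Among listed genes, 2 CDK and cyclin genes and 4 regulators were higher under TPM, against 4 and 8. Leaving out each library in turn gave log2 fold changes of 2.85 to 2.97 for *CDKN1A*, 0.66 to 0.70 for *CDKN1B*, 0.15 to 0.22 for *CDKN2A*, 1.65 to 1.73 for *CDKN2B*, 0.25 to 0.34 for *CDKN2C*, 1.13 to 1.29 for *CDKN2D* and −1.01 to −0.88 for *CDKN3*.

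The labels do not say that a replicate number marks a shared culture or day, and deviations of same-numbered libraries correlated at 0.004, 0.041 and 0.038, each the highest for its number. With the replicate number as a block, 1191 genes were higher and 1634 lower, and the log2 fold change of *CDKN1A* was 2.92. No member's call changed. The depth limits *CDKN1C*, with 3 fragments over the ARV-825 libraries.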
